A study of Mus musculus with 3 samples.

Results

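Transcript levels of 3T3-L1 cells were compared between 8 days and 2 days after the start of adipogenic differentiation. 3T3-L1 is an established mouse preadipocyte line whose cells fill with fat once induced by hormones. For each day, total RNA (150 ng) was labelled with cyanine-3 and hybridised to 1 Agilent array. The 2 arrays belong to a series of 3, and the array taken at 20 days served to choose a gene's probe and as a level beside some genes. The series was set up to follow expression as fat cells enlarge. Both groups share the line and the induction, for which the labels name no agent or dose.

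All named genes entered the comparison. Probes were named through their RefSeq accession and covered 20142 genes. A gene counted as measured where the scanner software marked its probe as well above background on each of the 2 arrays, which held for 12044 of the 20142 genes. A level is the log2 brightness of the probe minus the 75th percentile of its array, so 0 means as bright as that percentile. A difference is the day 8 level minus the day 2 level, and 1 on this scale is 2-fold. With 1 array per day there is no spread between cultures, no test and no p-value. The error given is a technical SD, from the spread of probes that each array carries 10 times, with a median of 0.076. "Higher" and "lower" therefore describe these 2 arrays. Fewer cells of a kind and less transcript per cell cannot be told apart in such bulk RNA.

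Preadipocytes that are induced to differentiate first pass through a short round of cell division, the clonal expansion. They then leave the cell cycle and build the machinery of the adipocyte under the transcription factors PPARG and the C/EBP family. Maturing fat cells take up glucose and fatty acids, store them as triglyceride in droplets, and secrete hormones and matrix.

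The arrays were similar in quality. Each held 44397 spots, of which 43020 were not controls, and 0 were saturated. The share of spots well above background was 55.9% on day 2 and 56.9% on day 8, and the 75th percentile of probe brightness was 662 and 636 against a local background of 19.0 and 18.5. Of 12 white adipocyte markers, 11 were above background on day 2 and 12 on day 8, and their summed brightness went from 629000 to 1300000. Of 11 fibroblast and preadipocyte markers, 10 and 11 were above background, and their summed brightness went from 84800 to 119000. Past 2-fold, 4 of the 10 measured ones were upward and 1 downward. Of 9 macrophage markers 4 were above background on each day, with a summed brightness of 5930 and 7040, while Adgre1, Cd163, Lyz2, Mrc1 and Ptprc were above on neither. Of 10 endothelial markers 3 and 4 were above (3730 and 4630), without Cdh5 and Vwf, and of 10 lymphocyte markers 4 and 5 (1370 and 1200), without Cd3d and Cd8a. Of the 3 endothelial markers measured on both days, Egfl7 was higher at 1.63 and 2 were under 2-fold. Of 10 epithelial markers 2 and 3 were above (149 and 2520), without Cdh1. The part of such cells in the results was not tested.

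Of the 12044 measured genes, 1665 (13.8%) were higher on day 8 by 2-fold or more and 1557 (12.9%) were lower by that much. At 4-fold the counts were 622 and 384, at 8-fold 292 and 182, and at 16-fold 131 and 88, so the larger differences were more often upward. The median difference was -0.06 and the quartiles lay at -0.59 and 0.50. Another 3092 genes (25.7%) lay within 0.25 of 0. Direction went with brightness. With genes cut into 4 equal groups by brightness, 16.6% of the dimmest group were 2-fold higher and 11.9% lower, while in the brightest group 8.87% were higher and 13.8% lower. The median technical SD was 0.215 in the dimmest group and 0.07 in the brightest. Where a gene past 2-fold had another measured probe, that probe lay on the same side in 738 of 768 cases (96.1%).

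Genes seen on 1 array alone were described by a bound. The bright level was set against the higher of the dim probe's own level and the lowest signal well above background, which was -5.70 on day 2 and -5.76 on day 8. That lowest signal is the floor, and folds measured from levels near it rest on dim spots. Such nearness is noted beside some genes below but not beside every one. Above background on day 8 alone were 779 genes, 304 of them by at least 2-fold, and on day 2 alone 442 genes, 134 of them by at least 2-fold. For 25 further genes another probe was above background where the used probe was not, and these have no bound.

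**Figure D1:**
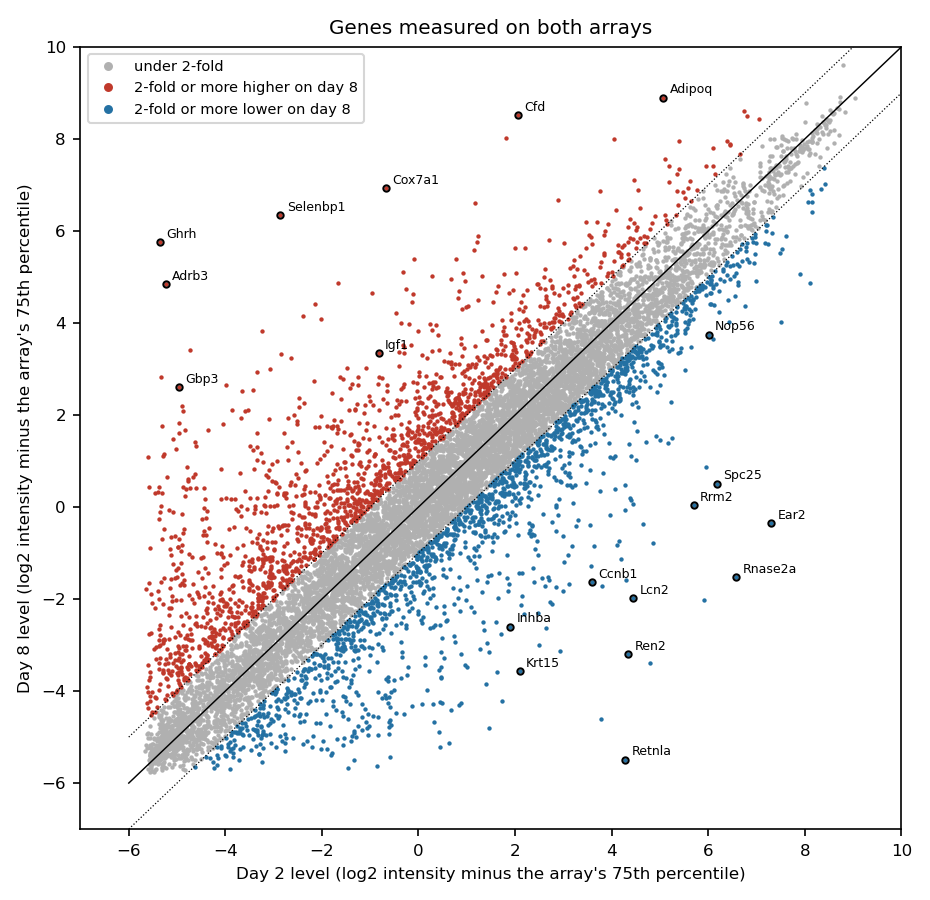
Each point is 1 of the 12044 measured genes, with its day 2 level on the horizontal axis and its day 8 level on the vertical axis, both as log2 brightness minus the array's 75th percentile. The solid line marks equal levels and the dotted lines 2-fold, with 1665 genes above the band in red and 1557 below it in blue, among them Spc25 at 6.19 and 0.51 and Cox7a1 at -0.68 and 6.94.

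To describe the genes by function, 58 lists were used, holding 1667 genes on the array, 1326 of them measured. The count of members past 2-fold is set beside the 13.8% and 12.9% of all measured genes, and the median of members beside -0.06. Among the lists, 9 had a median of 1 or more and 8 a median of -1 or less. The lowest medians were those of cell division and the highest those of interferon-induced genes, so the promoters of these groups are shown first.

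Genes of mitosis are commonly switched by a short promoter element, the cell cycle genes homology region (CHR), and those of replication by E2F sites. Interferon-induced genes carry the interferon-stimulated response element (ISRE). The elements were searched on both strands of RefSeq promoters of mouse assembly GRCm38.p6, from 250 bases before to 50 bases after each start. There were 32851 such windows for 27025 genes. The letters searched were TTTGAA for CHR, TTTCGCGC or TTTGGCGC for E2F, CCAAT, GAAANNGAAA for ISRE, where N is any base, and TTCNNNGAA for the gamma-interferon activated site (GAS). CHR and ISRE matches can share letters with a GAS match, and each element was counted on its own. A match is a description of letters, not a bound site.

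Before promoters were chosen for printing, those on an excluded chromosome were set aside. From the rest, promoters of 6 mitotic genes with a CHR match are printed. These have the largest downward differences among the remaining mitotic genes with a match upstream of the start. Each is written 5′ to 3′ in the direction of the gene with the CHR match, on either strand, in capitals.
Top2a: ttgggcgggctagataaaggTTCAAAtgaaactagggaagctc
Cdc20: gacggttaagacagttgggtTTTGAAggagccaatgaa
Prc1: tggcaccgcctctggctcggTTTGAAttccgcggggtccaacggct
Ube2c: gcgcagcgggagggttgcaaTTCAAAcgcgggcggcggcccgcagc
Ect2: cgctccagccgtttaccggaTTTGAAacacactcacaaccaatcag
Espl1: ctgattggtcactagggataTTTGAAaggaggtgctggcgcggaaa
On GRCm38.p6 these stretches lie upstream of the gene's start at chr11:99024190-99024232 (minus strand), chr4:118437344-118437381 (minus), chr7:80294426-80294471 (plus), chr2:164769880-164769925 (plus), chr3:27153967-27154012 (minus) and chr15:102296246-102296291 (plus). The first capital lies 23, 18, 30, 29, 114 and 27 bases before the start. The differences of the 6 genes were -4.59, -4.26, -4.20, -4.18, -4.02 and -4.01 in the same order. The Cdc20, Ect2 and Espl1 stretches also hold a CCAAT match on one strand or the other.

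Promoters of 6 interferon-induced genes with an ISRE match are printed. They were chosen with the same exclusion, for the largest upward differences among genes of the interferon lists with a match upstream of the start. The ISRE match nearest the start is in capitals, and the Gbp3, Oas1a and Ifit1 stretches each hold another match that is left in lower case or overlaps the capitals.
Gbp3: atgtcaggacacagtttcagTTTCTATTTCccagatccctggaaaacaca
Gbp2: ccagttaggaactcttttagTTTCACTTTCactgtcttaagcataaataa
Irgm2: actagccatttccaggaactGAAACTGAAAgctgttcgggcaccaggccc
Igtp: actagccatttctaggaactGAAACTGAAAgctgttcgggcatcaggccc
Oas1a: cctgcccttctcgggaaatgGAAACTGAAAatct
Ifit1: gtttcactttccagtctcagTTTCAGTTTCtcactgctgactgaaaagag
These lie upstream of the start at chr3:142559985-142560034 (plus strand), chr3:142620584-142620633 (plus), chr11:58214893-58214942 (plus), chr11:58199502-58199551 (plus), chr5:120907526-120907559 (minus) and chr19:34640784-34640833 (plus). The first capital lies 39, 59, 64, 34, 14 and 85 bases before the start. Their differences were 7.55, 6.96, 6.56, 6.5, 5.37 and 5.35. The stretches of Irgm2 and Igtp, members of a duplicated family on chromosome 11, share 48 of 50 bases and are not independent examples.

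Over whole groups, a CHR match was found in 55.9% of the 68 promoters of measured mitotic genes, against 17.9% of all promoters and 11.4% of the 9027 promoters of genes under 2-fold. Among the 369 promoters of genes 4-fold lower, which include members of the mitotic lists and are not independent of them, the share was 27.9%. CCAAT matches followed the same order, with 72.1% in mitotic promoters, 49.9% in those 4-fold lower and 37.4% in all promoters. E2F matches were most frequent in the 69 promoters of the replication lists, at 20.3%, against 7.35% in mitotic promoters and 0.813% in all. CHR matches were in 18.8% (13 of 69) of the replication promoters, near the 17.9% of all promoters. This lies between the mitotic promoters and the 11.4% of genes under 2-fold.

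An ISRE match was found in 38.1% of the 42 promoters of the interferon lists and in 7.24% of the 594 promoters of genes 4-fold higher. The share was 3.44% in all promoters and 2.56% in those of genes under 2-fold. GAS matches stood at 19.0%, 9.43%, 8.30% and 6.7% in the same order. The genes 4-fold higher include members of the interferon lists, so these shares are not independent. The C/EBP letters TTGCGCAA were found in 0.505% of promoters of genes 4-fold higher, in 0.277% of those under 2-fold and in 0.183% of all. The DR1 element, the site type of PPARG with its partner RXR, was found in 2 of the 594 promoters of genes 4-fold higher (0.337%), in 0.244% of those under 2-fold and in 0.381% of all. With 2 matches no direction can be read from these shares. The cyclic AMP response element TGACGTCA stood at 1.18%, 3.19% and 1.79% of the same groups.

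**Figure D2:**
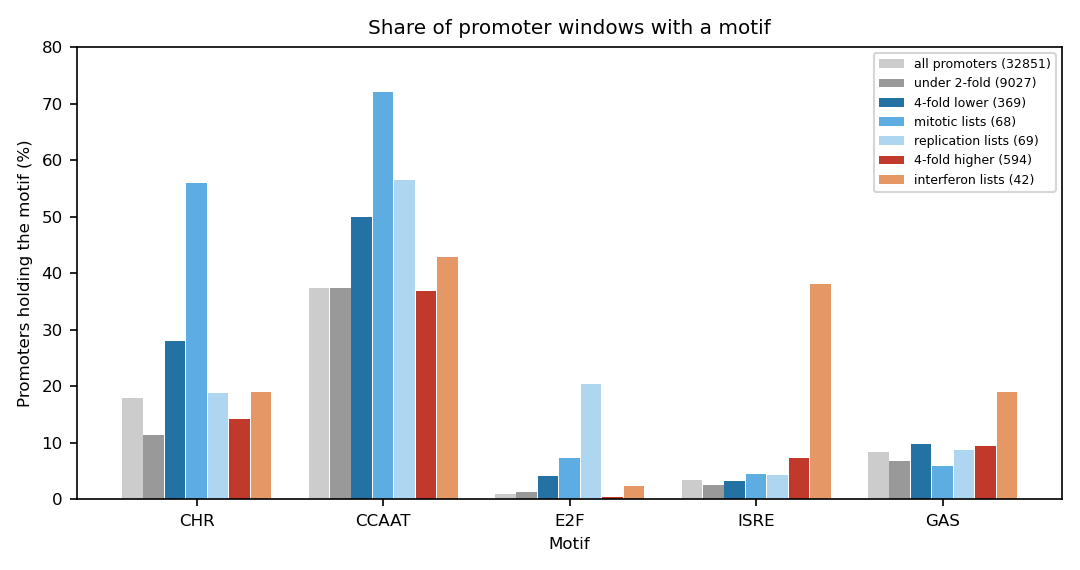
Bars give the share of 300-base promoter windows that hold each element on either strand, in percent, for 7 groups of promoters whose numbers stand in the legend. CHR and CCAAT shares are highest in the mitotic lists (55.9% and 72.1%), E2F in the replication lists (20.3%) and ISRE in the interferon lists (38.1%).

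Mitotic genes had the lowest medians of all lists. The kinetochore ties chromosomes to the spindle, and 21 of its 26 measured members were at least 2-fold lower and 0 higher, with a median of -3.45. Spc25, a subunit of the Ndc80 complex that grips microtubules, went from 6.19 on day 2 to 0.51 on day 8, which is 51.3-fold lower (technical SD 0.071). Its partners in the complex were alike. Nuf2 stood at 1.62 and -3.58, a difference of -5.20, and Spc24 at 0.89 and -4.25, a difference of -5.14.

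Of 22 spindle checkpoint genes and mitotic kinases, 19 were lower and 0 higher, with a median of -3.44. The kinase Aurka, which acts at spindle poles, went from 4.20 to -1.13 (-5.33). Bub1, a kinase of the checkpoint, went from 1.39 to -3.84 (-5.23). Birc5, the survivin subunit of the chromosomal passenger complex, went from 5.96 to 0.87 (-5.09), and its other probes gave -5.25 to -5.12. The checkpoint kinase Ttk was at least 9.33-fold lower.

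The spindle motor, condensin and cytokinesis list was lowest of all 58, with 22 of 24 measured members lower, 0 higher and a median of -3.69. Nusap1, a spindle microtubule binder, stood at 2.47 and -2.31. Top2a, the topoisomerase that untangles sister chromatids, stood at 1.46 and -3.14, and Prc1, which bundles microtubules of the spindle midzone, at 2.69 and -1.52. The kinesin Kif18b was at least 12.5-fold lower. Anln, an actin binder of the contractile ring, was at 2.94 and 3.69 and so ran the other way at 0.75, a gene singled out after its values were seen.

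DNA replication genes were lower by less. Of 24 measured genes that license and fire origins, 18 were lower and 0 higher, with a median of -1.73. The helicase subunits Mcm5 and Mcm6 were at -4.87 and -3.75, and Ticrr, which activates origins, at -3.75. Orc1, of the origin recognition complex, was at least 5.97-fold lower. At the fork, 23 of 27 were lower and 0 higher, with a median of -1.78, led by the polymerase subunit Pole2 (-3.94), the primase Prim1 (-3.67) and Dscc1 (-3.55), which helps to load the sliding clamp.

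Copying of chromatin along with DNA had 14 of 15 members lower and 0 higher, with a median of -2.49. Chaf1b, of the histone chaperone that loads new nucleosomes, went from 3.18 to -0.85, and both of its probes gave -4.03. Hmgb2, a chromatin protein of dividing cells, went from 4.92 to 1.55, and Hells, a chromatin remodeller, from -0.37 to -3.72.

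Nucleotide synthesis was split. The median over 19 members was -0.86 with 8 lower and 0 higher, but the members that make deoxynucleotides in dividing cells led it. Rrm2, the cycle-regulated subunit of ribonucleotide reductase, went from 5.70 to 0.04 (50.6-fold lower, technical SD 0.073). Tk1, thymidine kinase, went from 4.66 to -0.37, and Rrm1, the large reductase subunit, from 3.07 to 0.48.

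DNA break and crosslink repair had 14 of 24 lower and 2 higher, with a median of -1.06. Rad51ap1, a cofactor of strand exchange, was at -4.80, the nuclease Exo1 at -4.47 and Bard1, the partner of BRCA1, at -4.19, and Fancd2 was at least 9.28-fold lower. The 2 members that were higher were Rad50 (3.17) and Fancc (1.09). Their other probes gave 0.25 and 0.66, both under 2-fold, so for these 2 genes the probes disagree.

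Regulators of the cycle were mixed, with 13 of 37 lower, 5 higher and a median of -0.59. Lower were the mitotic cyclins Ccnb1 (3.60 to -1.63) and Ccnb2 (4.16 to -0.74) and the repressor E2f8 (-0.59 to -5.43). Higher were 5 genes, most of them brakes of the cycle. The CDK4 and CDK6 inhibitor Cdkn2b went from 0.20 to 2.36 (4.49-fold, other probe 2.06), the pocket protein Rbl2 from -2.37 to -0.86 (1.51), Ccng2, an atypical cyclin linked to arrest, from -0.33 to 1.13 (1.46), and the inhibitors Cdkn2c from 1.79 to 2.99 (1.20) and Cdkn2a by 1.12. Partners of the named cyclins and inhibitors in the same list were under 2-fold: Ccnd1 at -0.47, Ccnd2 at 0.27, Ccnd3 at -0.02, Cdkn1a at -0.78 and Cdkn1b at 0.91.

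**Figure D3:**
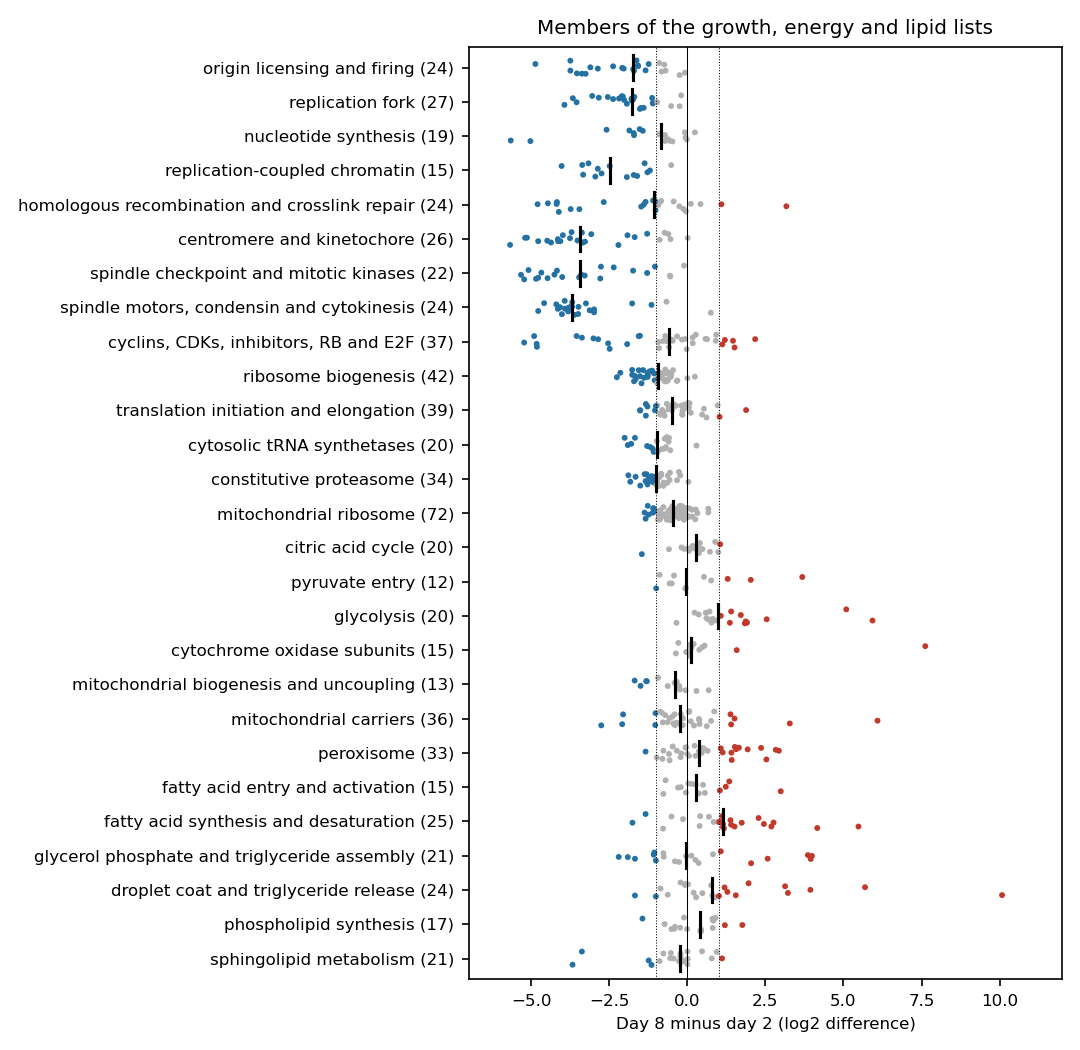
Each point is a measured member of a list on its row, placed by its log2 difference between day 8 and day 2, with the number of members in brackets, the black bar at the median and dotted lines at 2-fold. The cell division lists lie left with medians down to -3.69, protein production lies between -0.48 and -1.0, and glycolysis and fatty acid synthesis lie right at 0.98 and 1.14.

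Genes of protein production were lower as sets, by small amounts. In ribosome biogenesis 19 of 42 were at least 2-fold lower and 0 higher, with a median of -0.95. The snoRNP core proteins Nop56 and Nop58, which guide modification of ribosomal RNA, went from 6.01 to 3.75 and from 3.11 to 0.96, and the other probe of Nop56 gave -2.31. Noc4l, which acts in assembly of the small subunit, was at -1.77. Cytosolic tRNA synthetases had 9 of 20 lower and 0 higher, with a median of -0.96, led by those for threonine (Tars, -2.01), asparagine (Nars, -1.91) and cysteine (Cars, -1.80).

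The constitutive proteasome, which degrades tagged proteins, had 17 of 34 lower and 0 higher, with a median of -1.0. The lowest were the base ATPases Psmc6 (3.92 to 2.04) and Psmc4 (4.59 to 2.76) and the core subunit Psma5 (6.95 to 5.30). The range over the list ran only from -1.89 to 0.03. In translation 7 of 39 were lower and 2 higher, with a median of -0.48. Eif1, which checks start codons, was at -1.52, and the eIF2 subunits Eif2s2 and Eif2s1 at -1.51 and -1.33, with -3.02 and -1.74 from their other probes. The 2 higher members were the helicase Eif4a2 at 1.88 and Eif4ebp1, a repressor of cap-dependent translation, at 1.03.

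Mitochondrial ribosomal proteins had 8 of 72 lower and 0 higher, with a median of -0.47. These 11.1% past 2-fold are near the 12.9% of all measured genes. The lowest were Mrpl47 (-1.37), Mrpl32 (-1.34) and Mrpl49 (-1.27), whose other probe gave -0.34.

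Energy metabolism showed large differences in single isoforms and regulators beside small ones in the core enzymes. In the citric acid cycle 1 of 20 was higher, Sdha of succinate dehydrogenase at 1.05, and 1 lower, Idh3a of isocitrate dehydrogenase at -1.46. At the entry of pyruvate, the kinase Pdk1, which shuts down pyruvate dehydrogenase, went from -0.16 to 3.52 and was 12.8-fold higher. Pdk2 was at 1.29, and Pdp2, the phosphatase that reverses these kinases, at 2.03. Mpc2, a subunit of the mitochondrial pyruvate carrier, was at -1.0, and its partner Mpc1 at -0.89.

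Glycolysis had 10 of 20 members past 2-fold upward and 0 downward, with a median of 0.98. Eno2, the enolase isoform best known from neurons, went from -4.60 to 1.33 (5.93, technical SD 0.231), while its partner Eno1 was at 1.36. The lactate exporter Slc16a3 went from -5.16 to -0.07 (5.09), with a day 2 signal of 18.6 near the floor. Pfkl, the liver isoform of phosphofructokinase, was at 2.54, with Pfkm and Pfkp at 0.59 and 0.61. The glucose transporter Slc2a1 was at 1.91. The letters ACGTGC, the core of the hypoxia response element, were in 7 (22.6%) of the 31 promoters of these genes. The 31 promoters belong to 20 genes, so some genes count more than once. The share was 5.91% in all promoters, 7.80% in those of genes under 2-fold and 8.25% in those 4-fold higher. Among other lists it was 17.2% (5 of 29) for fatty acid synthesis, 11.6% for replication, 8.82% for mitotic and 2.38% for interferon promoters. With so few matches, glycolysis cannot be set apart from fatty acid synthesis.

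Cytochrome oxidase, the last complex of the respiratory chain, was measured in 15 subunits, with a median of 0.12. Of these, 2 (13.3%, near the 13.8% of all measured genes) were higher and 0 lower. The higher ones are the isoforms of heart and skeletal muscle. Cox7a1 went from -0.68 to 6.94 (197-fold, technical SD 0.073) and stayed at 6.48 on day 20, and Cox6a2 went from -0.70 to 0.88. Cox8b, also of the muscle type, was at -7.84 on day 2, not above background, and at 5.03 on day 8, at least 1690-fold higher. The widely expressed partners were close to equal on both days, with Cox7a2 at -0.02, Cox6a1 at 0.08 and Cox8a at 0.38.

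Cox7a1, Cox8b and Cidea are also used as markers of brown fat. Of 10 brown fat markers, 5 were above background on each day, and their summed brightness went from 1200 to 102000. Most of the day 8 sum came from Cox7a1, with a brightness of 77972, and Cox8b, with 20727. Cidea, a droplet protein, went from -3.60 to 2.09, while Elovl3, a fatty acid elongase of brown fat, ran the other way and was at least 10.3-fold lower. Ucp1, which defines thermogenic fat by uncoupling respiration, was above background on neither day, nor were Prdm16, Dio2 and Lhx8.

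Mitochondrial biogenesis and uncoupling had 4 of 13 lower and 0 higher. Pprc1, a PGC1-related coactivator, was at -1.69, Ucp2 at -1.5, Ucp3 at -1.30 and Nrf1 at -1.32, although the other probes of Nrf1 gave between -1.09 and 0.22. Mitochondrial carriers had 5 of 36 higher and 5 lower, near the shares of all genes. Slc25a34, a carrier without a settled substrate, went from -2.01 to 4.08 (68.0-fold higher), and its near relative Slc25a35 from -3.41 to -0.12. Slc25a12, the aspartate-glutamate carrier, went from 3.18 to 0.43, and Slc25a25, which carries adenine nucleotides, from 2.52 to 0.46.

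Peroxisomes had 12 of 33 higher and 1 lower, with a median of 0.37. The oxidases Acox2 and Acox3 were at 2.93 and 2.53, though the other probe of Acox3 gave 0.38. Pxmp2, a channel of the peroxisomal membrane, was at 2.83 and Phyh, which starts breakdown of phytanic acid, at 2.36. Ehhadh, a bifunctional enzyme of peroxisomal fatty acid oxidation, was at least 24-fold higher. The lower member was Pex11g, a factor of peroxisome division, at -1.34.

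In the lipid lists, synthesis of fatty acids stood out by its count, with 15 of 25 higher, 2 lower and a median of 1.14. Thrsp, a lipogenic regulator, went from -0.09 to 5.39 (44.7-fold). Acss2, which activates acetate, went from -0.19 to 3.97, Fads2, a desaturase, from -4.02 to -1.26, and Acacb, an acetyl-CoA carboxylase, from -0.92 to 1.77. The lower members were Hacd2 (8.16 to 6.41) and Elovl6 (-0.57 to -1.91), which both act in elongation beyond palmitate.

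Assembly of triglyceride was divided, with 6 of 21 higher, 6 lower and a median of -0.04. Several higher members supply glycerol or its phosphate. Pck1, of glyceroneogenesis, went from -1.41 to 2.58, the glycerol channel Aqp7 from -4.47 to -0.61 and Gpd1, glycerol phosphate dehydrogenase, from 5.39 to 7.96. The lipin Lpin3 was at 3.95. The lower members include acyltransferases, Agpat4 (-2.20) and Gpat3 (-1.91), and the glycerol kinase Gk (-1.68).

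Droplet coats and triglyceride release had 10 of 24 higher and 2 lower, with a median of 0.78. The receptor Adrb3, through which catecholamines start lipolysis, went from -5.23 to 4.84, but its day 2 signal of 17.6 lay near the floor. Pde3b, by which insulin lowers cyclic AMP in fat cells, went from -2.94 to 1.00. Cideb, a droplet fusion protein, was at 3.22. Fitm2, which acts in droplet budding, and Abhd5, the coactivator of the main triglyceride lipase, were lower at -1.68 and -1.01.

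Entry and activation of fatty acids had 4 of 15 higher and 0 lower. The transporter Slc27a1 went from -1.40 to 1.59, and Acsl3, Lmf1 and Vldlr were at 1.34, 1.23 and 1.04. Phospholipid synthesis had 2 of 17 higher, Pcyt2 of the ethanolamine branch at 1.76 and Chpt1 at 1.20 (other probe 0.49), and 1 lower, Lpcat1 at -1.44. Sphingolipid metabolism had 4 of 21 lower and 1 higher. The ceramide synthase Cers3 was at -3.68 and Sphk1, which makes sphingosine phosphate, went from 2.84 to -0.53 (-3.38, other probe -3.20).

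Transcription factors of differentiation differed in both directions. Among 26 nuclear receptors 6 were higher and 2 lower, with a median of 0.60. The glucocorticoid receptor Nr3c1 was at 1.86, the retinoic acid receptor Rarg at 1.84 and Pparg at 1.71, and the thyroid hormone receptor Thrb was at least 6.02-fold higher. Nr2f1 (-1.92) and the vitamin D receptor Vdr (-1.84) were lower.

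Of 19 C/EBP and Krüppel-like factors, 5 were higher and 2 lower. Klf15, a factor of mature adipocytes, went from -2.37 to 2.26 (24.7-fold), and Klf2, Klf1, Klf6 and Klf11 were at 2.07, 1.97, 1.66 and 1.46. Klf5, a factor of the early phase, went from -0.30 to -4.50, and Cebpb, of the first hours of induction, from 5.50 to 4.32.

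Among positional and mesenchymal factors, of 19 measured Hox genes 3 were higher, among them Hoxa3 (1.30) and Hoxa7 (1.28), and 2 lower, Hoxb2 (-2.0) and Hoxd3 (-1.02). These shares of Hox genes, 15.8% and 10.5%, are near those of all genes. Commitment factors had 4 of 23 higher and 5 lower. The repressors of the Snail family went opposite ways, with Snai2 from -2.71 to -0.38 and Snai1 from 2.33 to 0.18. Zeb2 was at 1.96, Ebf2 at 1.18, Ebf1 at 1.12, Prrx2 at -1.82 and Twist2 at -1.5.

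Histone and DNA modifying enzymes had 8 of 36 higher and 0 lower, with a median of 0.29. Hdac5, a class II deacetylase, went from 0.27 to 3.84 (11.8-fold), and its relative Hdac9 was at least 11.5-fold higher. The demethylases Kdm4b and Kdm3a were at 2.50 and 1.70. Ezh1, the Polycomb methyltransferase of resting cells, was at 1.72, with 1.70 from its other probe.

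The highest medians of all lists belonged to interferon-induced genes. Interferons signal through receptors and STAT and IRF factors to a broad set of antiviral genes. All 9 measured guanylate-binding proteins and immunity-related GTPases, which attack vacuoles of intracellular microbes, were higher, with a median of 5.61 (3.52 with the stricter background filter and 3.59 with normexp), and 3 more were at least 2-fold higher by their bound. Gbp3 went from -4.95 to 2.60 (188-fold, technical SD 0.271), Gbp2 from -4.87 to 2.09, Irgm2 from -5.09 to 1.47 and Igtp from -4.83 to 1.67. Ifi47 was at least 91.5-fold higher. The day 2 levels of Gbp3, Gbp2, Irgm2 and Igtp lie within 1 of the floor, so the size of their folds rests on dim spots. Ifi47 was not above background on day 2, and its fold is a bound.

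Type I interferon effectors had 18 of 22 higher and 0 lower, with a median of 2.93, and 7 more were higher by their bound. Rtp4, an antiviral protein, went from -3.07 to 2.99 and Parp14 from -5.20 to 0.66. Oas1a, which senses double-stranded RNA, went from -4.77 to 0.61, Ifit1, which binds foreign RNA, from -4.78 to 0.57, and Ifit3 was at least 251-fold higher. The day 2 levels of Parp14, Oas1a and Ifit1 lie near the floor.

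The sensing and signalling genes were higher by less, with 11 of 22 higher, 0 lower and a median of 0.93. Irf7, the amplifier of the response, went from -4.38 to -0.08 and Irf2 from -2.32 to -0.64. Stat2 and Irf9, which act together in the response, went from -1.06 to 1.82 and from -1.11 to 2.22. Among the receptors, Ifnar2 was at 1.20, Ifnar1 at 0.52 and Ifngr1 at -0.64. The receptors were chosen after their values were seen.

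Antigen presentation had 18 of 23 higher and 0 lower, with a median of 2.06. H2-T10, a nonclassical class I gene, was at 4.38, the peptide transporter Tap2 at 3.57 and the class I activator Nlrc5 at 3.38, with 0.79 from its other probe. The class I genes are close relatives, so signal may be shared among their probes. The immunoproteasome subunit Psmb9 went from -4.67 to 0.65 and Psmb8 was at least 40.1-fold higher, while the constitutive subunits that they replace, Psmb6 and Psmb5, were at -0.76 and -0.57. The last pair, Psmb10 and Psmb7, stood at 0.93 and -0.65. These constitutive subunits and Psmb10 were chosen after their values were seen.

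Markers of immune cells were read beside these lists. Adgre1, Cd163, Lyz2, Mrc1 and Ptprc, which define macrophages or leukocytes, were above background on neither day. Of 9 macrophage markers, 4 were above background on each day, with summed brightness of 5930 and 7040. Itgam was at 0.25, Csf1r at -0.01 and Aif1 at 0.11, and Marco, a scavenger receptor, was higher at 4.11. The day 2 signal of Marco, 21.1, lay near the floor. Of 10 lymphocyte markers, 4 and 5 were above background, with sums of 1370 and 1200, and Cd3d, Cd8a, Cd79a and Ms4a1 were above background on neither day. The 4 measured lymphocyte markers were all under 2-fold, among them Cd4 at -0.39 and Nkg7 at 0.24. Lck, above background on day 8 alone, was at least 3.0-fold higher.

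Genes of complement and pattern recognition were more often higher than lower. Complement had 7 of 10 measured genes higher and 0 lower, with a median of 1.91 (0.49 with no background filter), and 11 genes of the list were above background on neither day. The alternative pathway genes led: Cfb went from -5.60 to 1.08 (6.68, technical SD 0.343) and Cfd, adipsin, from 2.06 to 8.52. The day 2 signal of Cfb, 13.7, lay near the floor. C4b was at 4.37 and C1ra at 2.77. Toll-like receptor and NF-kB genes had 8 of 26 higher and 2 lower. Cd14 was at 2.96, the brake Tnfaip3 at 2.64 and Tlr4 at 2.25, while Nfkbia, also a brake, was at -1.11 and Tnfrsf1b at -1.47.

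In the matrix, collagen chains had 3 of 21 higher and 2 lower, near the shares of all genes. The higher were Col4a5 (1.57), Col3a1 (1.44) and Col18a1 (1.08, other probe 0.43), and the lower Col7a1 (-1.31) and Col4a1 (-1.17). Enzymes that hydroxylate and crosslink collagen had 7 of 22 higher and 3 lower. Lox, the main crosslinking oxidase, was at 2.0, P4ha1 at 1.98, Loxl3 at 1.82 and Pcolce2 at 1.71, against Fkbp10 (-1.42), Loxl1 (-1.18) and Bmp1 (-1.18). The other probe of Loxl1 gave -0.94 and those of Bmp1 gave -0.5 to -0.32, under 2-fold.

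Small leucine-rich proteoglycans, which space collagen fibrils, had 5 of 9 higher and 1 lower, with a median of 1.47 (0.95 with the stricter filter and 0.79 with normexp). Ogn went from -4.73 to 0.42, Podnl1 from -4.91 to -1.22, Lum from -3.12 to -0.41 and Dcn from 2.23 to 4.08. Fmod was at least 11.6-fold higher and Tsku was lower at -2.70.

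Among 18 integrins and laminins 4 were higher and 2 lower. The laminin chains Lamb3 and Lamb2 were at 3.48 and 1.67, and Itga11, a collagen receptor, was at least 37.3-fold higher. Itga1 was at 2.30, with 0.01 from its other probe and a day 2 signal of 18.5 near the floor. Itgb3 (-2.33) and Itga5 (-1.39) were lower. Metalloproteases and their inhibitors had 6 of 26 higher and 5 lower. The inhibitors Timp3 and Timp4 were at 3.43 and 2.40 and the protease Mmp23 at 2.98, against Adam12 (-1.56), Mmp2 (-1.24) and Adam19 (-1.23). The day 2 signal of Timp3, 14.5, lay near the floor.

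Cell shape genes were largely lower or split. Tubulins had 6 of 14 lower and 0 higher, with a median of -0.73. Tubb6 went from 4.94 to 2.49, Tuba1c from 6.55 to 4.58 and Tubb2a from 4.16 to 2.30. Tubulin genes are close relatives, and their probes may share signal. Among 13 intermediate filaments the extremes ran both ways. Krt18 went from -3.68 to 1.94 and desmin, Des, from -3.56 to -0.04, while the keratins Krt15 and Krt14 went from 2.10 to -3.57 and from -1.33 to -4.86. Lmnb1, a B-type lamin of the nuclear envelope, was at -2.53. Of the 10 epithelial markers, which include keratins, Cdh1, Cldn3, Cldn4, Grhl2, Krt8 and Ocln were above background on neither day, and the part of epithelial cells in the keratin levels was not tested.

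**Figure D4:**
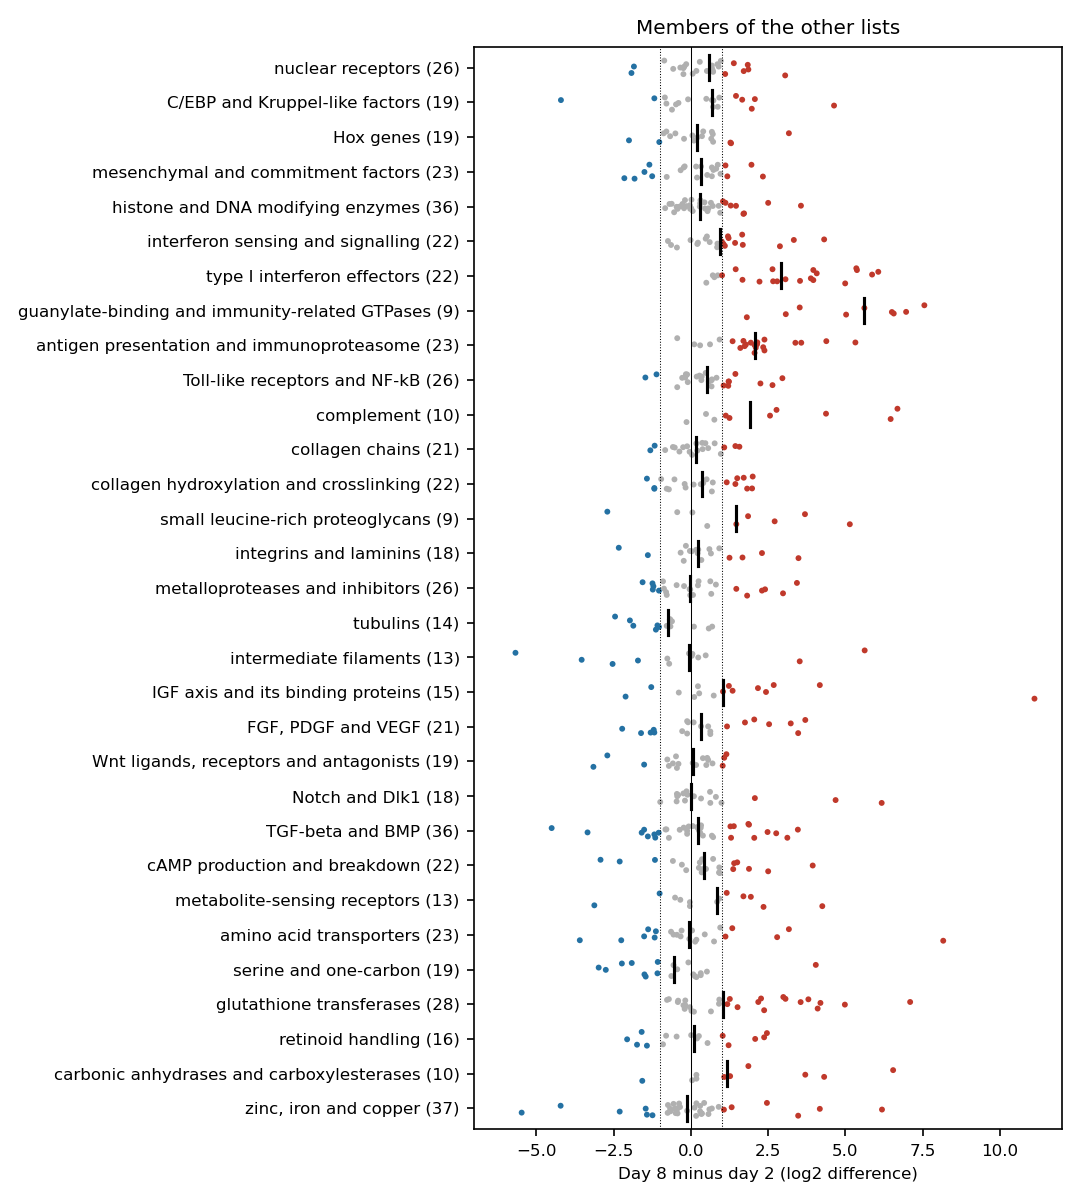
Each point is a measured member of the remaining lists, placed by its log2 difference between day 8 and day 2, with the number of members in brackets, the black bar at the median and dotted lines at 2-fold. The interferon lists lie farthest right, with medians of 2.93 and 5.61, while tubulins and serine and one-carbon genes lie left at -0.73 and -0.56.

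In growth factor signalling, the IGF axis had 8 of 15 higher and 2 lower, with a median of 1.04, against 0.27 with the stricter background filter and 0.40 with normexp. Igf1 went from -0.82 to 3.35 (18.0-fold), and its other probes gave 2.58 to 4.44. Igfals, which holds IGF in serum complexes, was at least 32.6-fold higher, the substrate Irs1 was at 2.43 and the adaptor Grb14 at 2.68. Irs2 was lower at -1.28 and Igfbp6 at -2.11. Ghrh, the hypothalamic releasing hormone of growth hormone, went from -5.35 to 5.76, the largest measured difference over all genes, with a day 2 signal of 16.2 near the floor.

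Of 21 FGF, PDGF and VEGF genes, 7 were higher and 5 lower. Klb, the coreceptor for FGF21, was at 3.70, while Fgf21 itself was at least 7.0-fold lower. Vegfd was at 3.47, Fgf7 at 3.23 and Pdgfrb at 2.53, and the receptors Fgfr3 (-1.61, other probe -0.63), Fgfr2 (-1.30) and Nrp2 (-2.22) were lower. In the TGF-beta and BMP list 10 of 36 were higher and 8 lower. The activin subunit Inhba went from 1.90 to -2.60 and the activin antagonist Fst from 2.42 to -0.91, while Gdf5 went from -1.69 to 1.77 and Tgfb2 from -1.90 to 1.22. The receptors Acvr2b and Acvrl1 were at 2.76 and 2.48.

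Wnt genes had 3 of 19 higher and 3 lower, 15.8% each way and near the shares of all genes. A further 20 genes of the list were above background on neither day. Sfrp5, an antagonist, went from -0.64 to -3.79 and Wnt5b from -1.51 to -4.21, while Sfrp2 was at least 12-fold higher. Wnt5a was at 1.15, Fzd4 at 1.08 and Wnt9a at 1.03, and Fzd5 was at -1.51 with -0.10 from its other probe. In the Notch list 3 of 18 (16.7%, near the 13.8% of all measured genes) were higher and 0 lower. They were the Fringe glycosyltransferases, which tune Notch for its ligands, with Mfng from -2.85 to 3.32 (72.2-fold, other probe 6.10) and Lfng from -5.57 to -0.88, and the receptor Notch3 at 2.07. The remaining Fringe, Rfng, was at -0.19.

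Cyclic AMP enzymes had 6 of 22 higher and 3 lower. The phosphodiesterases differed by family: Pde3b, Pde2a and Pde1a were at 3.94, 2.50 and 1.88, and Pde4b, Pde4d and Pde4c at -2.92, -2.30 and -1.16. Receptors for metabolites had 5 of 13 higher, 2 lower and 5 more at least 2-fold higher by their bound. The succinate receptor Sucnr1 was at least 245-fold higher, the lactate receptor Hcar1 went from -5.15 to -0.91 and the ketone body receptor Hcar2 from 0.35 to 2.29. The day 2 signal of Hcar1, 18.6, lay near the floor. Gpr84, a receptor for medium-chain fatty acids, was lower at -3.12.

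Transporters of amino acids went both ways, with 5 of 23 higher and 6 lower. Slc7a5 and Slc3a2, the 2 chains of the large neutral amino acid exchanger, were at -3.59 and -1.51 and Slc7a1, for cationic amino acids, at -2.25, and the cystine carrier Slc7a11 was at least 3.60-fold lower. Slc36a2, for small amino acids, went from -5.33 to 2.82, Slc43a1 from -1.13 to 2.04 and the taurine transporter Slc6a6 from 0.89 to 3.68. The day 2 signal of Slc36a2, 16.4, lay near the floor.

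Serine and one-carbon enzymes, which feed nucleotide synthesis, had 8 of 19 lower and 1 higher, with a median of -0.56. Cth, of cysteine synthesis, was at -2.98, and the mitochondrial folate enzymes Mthfd2 and Shmt2 at -2.75 and -2.23. The higher member was Aldh1l1, which consumes formyl folate, from -1.37 to 2.67.

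Genes of detoxification were more often higher than lower. Glutathione transferases and related genes had 14 of 28 higher and 0 lower, with a median of 1.05. Gstt1 went from -5.32 to 1.77 (day 2 signal of 16.6, near the floor) and its relative Gstt3 from -1.09 to 3.02. Gstm1 went from -0.25 to 4.73, with 5.12 from its other probe, and Gstm4 from -3.22 to 0.97. Gstm genes are near-identical copies, and how much signal their probes share is uncertain. Carbonic anhydrases and carboxylesterases had 6 of 10 higher and 1 lower, with a median of 1.18, against 0.18 with the stricter background filter, 0.39 with none and 0.50 with normexp background correction. Ces1d went from -2.39 to 4.16 and Ces1f from 1.32 to 5.02, and Car9 was at least 20.1-fold higher.

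Handling of metals had 6 of 37 higher and 6 lower, 16.2% each way and near the shares of all genes. Ceruloplasmin, Cp, which oxidises iron, went from -3.66 to 2.53, Hfe was at 4.17, the iron exporter Slc40a1 at 3.47 and Hmox1, which frees iron from heme, at 2.46. The metalloreductases Steap1 and Steap2 and the zinc importer Slc39a4 were lower at -5.47, -2.30 and -4.21, while their relative Steap4 was at least 6.2-fold higher. Retinoid genes had 5 of 16 higher and 4 lower. Cyp26b1, which degrades retinoic acid, was at 2.46 and Aldh1a7 at 2.37, against Dhrs3 (-2.06) and Rdh10 (-1.59), which set the balance of retinol and retinal.

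Over all genes, the largest differences were sought among the 9757 whose dimmer array lay above the lower quartile of well measured signals, at -3.18 on day 2 and -3.29 on day 8. The largest upward one was that of Selenbp1, a selenium-binding protein, from -2.86 to 6.34 (587-fold, technical SD 0.115). After Cox7a1 followed Sncg, gamma-synuclein, from -2.14 to 4.42, then Ces1d, the sulfotransferase Sult1a1 at 6.53, Cfd, and the apolipoprotein Apoc1 from 1.82 to 8.02. Mfng, Slc25a34, Rtp4, the kinase Aatk (5.89) and the ubiquitin-like modifier Ubd (5.63) complete the 12. On day 20 all 12 stood within 1.1 of their day 8 level.

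Downward, the largest were secreted ribonucleases of the eosinophil-associated family, Rnase2a from 6.58 to -1.52, Ear1 from 5.92 to -2.02 and Ear2 from 7.31 to -0.34. These genes are near copies, and their probes may read one another's transcripts. Of the eosinophil markers, 8 of 10, Siglecf, Epx and Prg2 among them, were above background on neither day. The other 2, Il5ra and Ccr3, lay near the floor. Ren2 went from 4.34 to -3.20, and the renin genes are likewise near-identical copies, with Ren1 at -4.35. The others were Lcn2, an iron-scavenging lipocalin, from 4.45 to -1.97, the mitotic kinase Pbk (-6.07), the linker histone H1f5 (-5.89), Spc25, Rrm2, the protease inhibitors Ctla2a (-5.65) and Ctla2b (-5.51), also near copies, and Steap1.

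**Figure D5:**
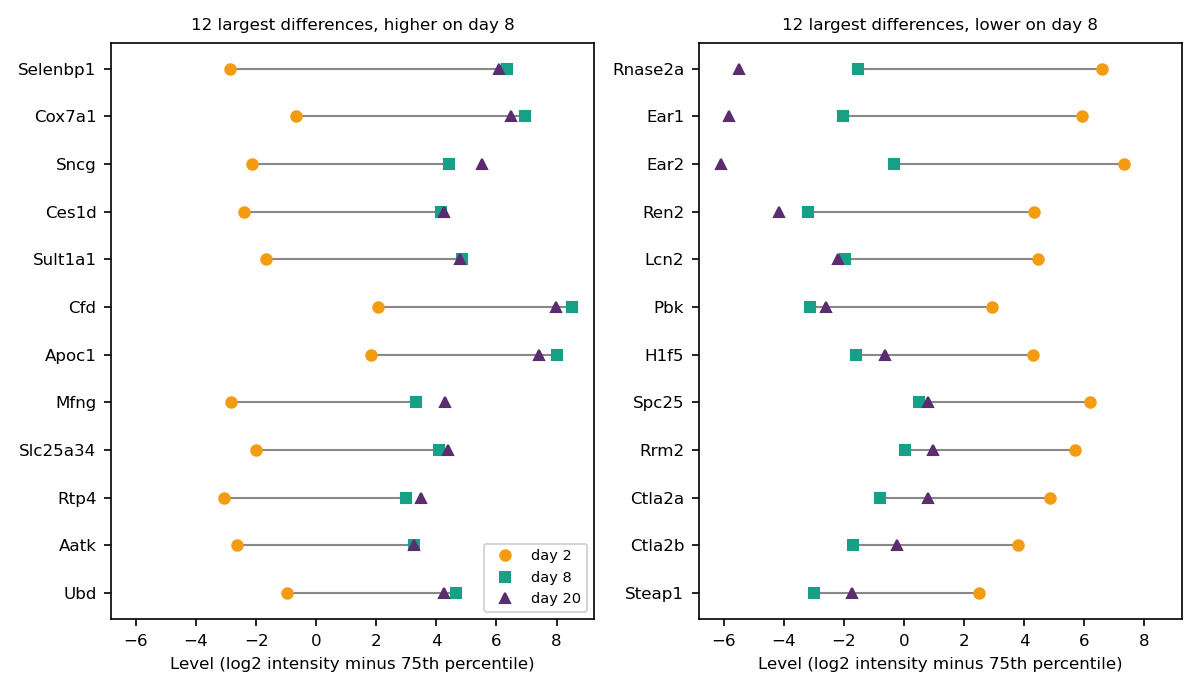
Each row is a gene, with its level on day 2 (circle), day 8 (square) and day 20 (triangle) as log2 brightness minus the array's 75th percentile, for the 12 largest upward (left) and downward (right) differences. Selenbp1 lies at -2.86, 6.34 and 6.08 and Rnase2a at 6.58, -1.52 and -5.51, and of the genes shown only Ear2 on day 20 was not above background.

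The largest bounds upward after Cox8b were those of the phospholipid phosphatase relative Plppr3 (at least 273-fold), Ifit3 and Sucnr1. The oxygen-binding protein of muscle, Mb, was at least 187-fold higher, Ffar4, a receptor for long-chain fatty acids, at least 185-fold and Cyp2ab1 at least 175-fold. Apol9b was at least 165-fold, B3galt2 at least 144-fold and Gngt2 at least 140-fold higher. All 10 were above background again on day 20. Downward, the secreted protein Pip was at least 296-fold lower, the ribonuclease Ang4 at least 89.4-fold, the galectin Lgals7 at least 80.6-fold and the neuropeptide precursor Kiss1 at least 60.0-fold. Plekhs1 (38.3-fold), Pi16 (32.5-fold), Scgb1c1 (23.5-fold), Tnfrsf13c (21.4-fold), Iqgap3 (20.3-fold) and Syt13 (19.4-fold) followed, each as a lower limit.

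Markers of further cell types held single genes that differed. Of 12 skeletal muscle markers, 5 and 4 were above background, with Acta1 from -5.54 to -1.90 and Tnni2 from -0.76 to -4.16, and Ckm, Myod1 and Myog were above background on neither day. The day 2 signal of Acta1, 14.2, lay near the floor. In bone and cartilage, Comp went from -3.49 to 0.19 and Spp1 from -3.39 to 0.02, while Alpl went from -1.59 to -3.57, and Sp7, Acan and Col2a1 were above background on neither day. Of 10 hepatocyte markers, 0 were above background on day 2 and 3 on day 8, with Cyp2e1 at least 11.1-fold higher and Alb, Apoa1 and Ttr on neither day. Neuronal markers had 3 of 10 above background on each day, all under 2-fold.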

How the data were processed

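The authors deposited 1 scanner table per array, made with version 10.7.1.1 of Agilent Feature Extraction, per the submitters' processing notes. The deposited intensity is linear spot brightness after background correction, per the file headers, beside marks for spots above background, saturated spots and outliers. The authors' log2 series table was used as an alternative. It equals log2 of the same intensity plus 1 constant for each array. RNA was extracted with Trizol, per the labels' protocols, and 1 slide held all arrays.

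Control spots and outliers were dropped, repeated spots averaged, and each array's 75th percentile over probes was subtracted from log2 intensity. Of 39427 probes, 26579 were named through a RefSeq table of GRCm38.p6 and 12848 were not. The headers give mm9 for the array design, so probes have no coordinates here. A gene took its brightest probe by the mean over 3 arrays (5370 genes had several). Counting was tested on simulated data. Python 3.11.15, R 4.3.3 and limma 3.58.1 were used, limma for quantile, cyclic loess and normexp values. Normexp used the median spot and background signals. Array, culture and day cannot be told apart.

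Gene lists, markers and motifs were chosen with earlier results of these data known. Named are, per list, up to 4 measured members higher and 3 lower past 2-fold (or the 2 largest differences where none passed), the largest bound each way, isoform or paralog partners of these, and defining cell type markers. Over all genes the 12 largest differences and 10 largest bounds each way are named, clone names left out. Further members named to complete a count of 5 or fewer (Cdkn2a, Ucp3, Klf11), and Ren1 beside Ren2, were chosen after their values were seen. Results were recomputed under 11 alternative settings. Some genes that the rule names are not reported here.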

Additional observations from a re-analysis of the deposited data

Results flagged for a closer look

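Probes without a gene name lie outside the comparison of genes but carried signal. Of 5026 such probes well above background on days 2 and 8, 422 (8.40%) were higher on day 8 by 2-fold or more and 619 (12.3%) lower, against 13.8% and 12.9% of named genes. Their part was not examined further.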

How the results depend on the processing

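Counts past 2-fold moved with the choice of background filter. With no filter, over all 20142 named genes, 2615 were higher and 2110 lower, against 1665 and 1557. With both arrays above the lower quartile the counts were 1172 and 1245. Under the other 9 settings between 1271 and 1933 genes were higher and between 1201 and 1838 lower. Centring on the array median shifted the median of all genes by -0.11, the 75th percentile over detected probes by 0.13 and cyclic loess by 0.12, and differences are to be read relative to these shifts. Over all settings 10 of the 58 list medians took both signs, those of the Notch, Wnt, TGF-beta, amino acid transporter, triglyceride assembly, intermediate filament, metalloprotease, pyruvate entry, retinoid and metal lists. Across the 11 settings 51 to 58 of the 58 lists kept their median on the same side of the median of all genes. Of 300 named genes past 2-fold, 219 kept this with the stricter filter, which tests fewer genes, and 275 to 300 elsewhere. Of the named genes past 2-fold, Nrf1 alone turned direction, from -1.32 to 0.22 with the median over its probes. Il5ra, near 0 at -0.04, lay between 0.01 and 0.10 under 3 settings. No paired analysis was possible because each day has 1 array.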
